A study of Mus musculus with 5 samples.

Results

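The abundance of 8 endocannabinoid system genes was compared in RNA pulled down with tagged ribosomes from the dentate gyrus and the cerebral cortex of adult mice. They were chosen by symbol as the CB1 receptor gene Cnr1, the 2-arachidonoylglycerol synthases Dagla and Daglb, the hydrolases Mgll, Abhd6 and Abhd12, and the anandamide pathway genes Napepld and Faah. These members and the wider gene lists were chosen with earlier results of these data known, so counts of calls among them are descriptive. All 8 were found among the 32531 genes listed in each library. The 3 dentate gyrus and 2 cortex libraries came from untreated mice that all carried the Rbp4-Cre KL100 driver and the Cre-dependent Rosa26-LSL-EGFP/Rpl10a allele. In this method, translating ribosome affinity purification (TRAP), anti-EGFP beads enrich the ribosome-bound RNA of cells with Cre activity. Both groups hold purified fractions only, and input or untagged libraries were not analysed here. The series names neurons as its subject, and the driver is best known from pyramidal neurons of cortical layer 5. The labels give neither the cells in which it was active here nor the animal behind each replicate, so the p-values reflect library-to-library spread, which may be technical.

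Endocannabinoids are lipid messengers made on demand in the postsynaptic neuron that travel back to presynaptic CB1 receptors and reduce transmitter release. The abundant one, 2-arachidonoylglycerol (2-AG), is cut from diacylglycerol by diacylglycerol lipases and broken down by several serine hydrolases. Anandamide and related N-acylethanolamines can be released from their membrane precursors by the phospholipase NAPE-PLD and are hydrolysed by fatty acid amide hydrolase. In the hippocampus, CB1 is known from the terminals of cholecystokinin interneurons and of mossy cells, whereas granule cells are known for little CB1 and for NAPE-PLD in their mossy fibre axons.

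Libraries held 22600963 to 36837908 gene counts, and Rn45s, the ribosomal RNA precursor, took 0.891% to 1.01% of them in dentate gyrus and 1.78% to 2.37% in cortex. All 8 granule cell markers passed the test as higher in dentate gyrus and 5 of 6 cortical layer 5 markers as lower, so the labels match their defining genes. Prox1, the granule cell homeobox gene, had 1141, 940 and 1090 counts per 1000000 TMM-scaled reads (CPM) in dentate gyrus replicates 1, 2 and 3, against 2.37 and 14.7 CPM in cortex replicates 1 and 2. Rbp4, whose regulatory sequence drives Cre, had 9.93, 9.46 and 3.41 CPM in dentate gyrus, against 9.98 and 15.0 CPM in cortex, and was not called.

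The promoters of Napepld, Faah and Cnr1 are shown because the RNA of these genes differed most clearly between the tissues among the members matched to a RefSeq promoter; Dagla is named only. Promoter sequences of 6 of the 8 members were matched in the RefSeq table used, on GRCm38.p6, the build that mm10 names. Each run gives the 250 bases before the RefSeq transcription start, 5′ to 3′ on the gene's strand, and capitals mark matches to the motifs searched on both strands. For Cnr1, which has 3 RefSeq starts, the window is that of the start nearest to a GENCODE M21 protein-coding transcript, 12 bases away. The Faah start lies 2 bases from such a transcript start, and the Napepld start 226 bases upstream of one. Bases after the RefSeq start were found in a GENCODE transcript of the gene for Faah and Cnr1, but not for Napepld. The Napepld window is thus less well placed against GENCODE than the others. The windows lie at chr5:21701623-21701872 (Napepld, minus strand), chr4:116017925-116018174 (Faah, minus strand) and chr4:33924394-33924643 (Cnr1, plus strand).
Napepld: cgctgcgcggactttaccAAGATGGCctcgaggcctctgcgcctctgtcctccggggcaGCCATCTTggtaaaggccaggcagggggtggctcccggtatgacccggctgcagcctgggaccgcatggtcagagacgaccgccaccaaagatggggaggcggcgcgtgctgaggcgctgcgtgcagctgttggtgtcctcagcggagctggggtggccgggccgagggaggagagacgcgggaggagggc
Faah: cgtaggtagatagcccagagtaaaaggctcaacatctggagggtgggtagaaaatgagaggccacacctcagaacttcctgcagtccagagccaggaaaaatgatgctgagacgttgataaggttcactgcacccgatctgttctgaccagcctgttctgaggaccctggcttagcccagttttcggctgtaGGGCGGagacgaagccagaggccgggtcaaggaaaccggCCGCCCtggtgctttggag
Cnr1: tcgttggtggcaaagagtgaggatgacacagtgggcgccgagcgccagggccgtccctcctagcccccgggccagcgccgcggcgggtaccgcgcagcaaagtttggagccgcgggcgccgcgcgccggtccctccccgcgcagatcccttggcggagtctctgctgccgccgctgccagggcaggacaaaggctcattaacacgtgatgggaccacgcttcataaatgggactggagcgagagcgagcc

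The motifs were the GC box GGGCGG, the cyclic AMP response element TGACGTCA, the TATA motif TATAAA and AAGATGGC, the core of the YY1 motif. AAGATGGC was added after the Napepld sequence had been read, and no match shown overlaps another. The Napepld window held AAGATGGC in both orientations, at 232 and 191 bases before the RefSeq start. At least 1 match was held by 1.56% of 32851 RefSeq promoter windows of this length. The Faah window held 2 GC boxes, at 58 and 19 bases before the start, a motif present in 32.7% of windows. The Cnr1 window held none of the 4 motifs. TGACGTCA and TATAAA, present in 1.55% and 12.4% of all windows, were in none of the 3 windows shown. The windows were 69.6% (Napepld), 55.6% (Faah) and 68.8% (Cnr1) G or C, against a median of 52.4% over all windows. A match describes letters only, and no binding was measured here.

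The tissue comparison asked which of these transcripts differ between the pulled-down RNA of dentate gyrus and that of cortex. In dentate gyrus Napepld was about 8-fold higher, Dagla and Faah were higher by less than 2-fold, and Cnr1 was about 4-fold lower. The other 4 members, Daglb, Mgll, Abhd6 and Abhd12, did not pass. In the edgeR quasi-likelihood test, adjusted by Benjamini-Hochberg over all 14136 genes tested, 3 of 8 members were called higher and 1 lower in dentate gyrus, where 10.5% and 10.8% of all tested genes were called in these directions. The libraries of the tissues did not overlap for 5 of 8 members, as for 50.1% of all tested genes. The median log2 fold change of the members was 0.07, against 0.02 over all tested genes. Napepld alone among the members was called when either cortex replicate 1 or cortex replicate 2 was left out, which leaves a lone cortex library that is assumed to vary like the others. Between 1 and 5 members were called over the 5 fits that leave out 1 library each.

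**Figure D1:**
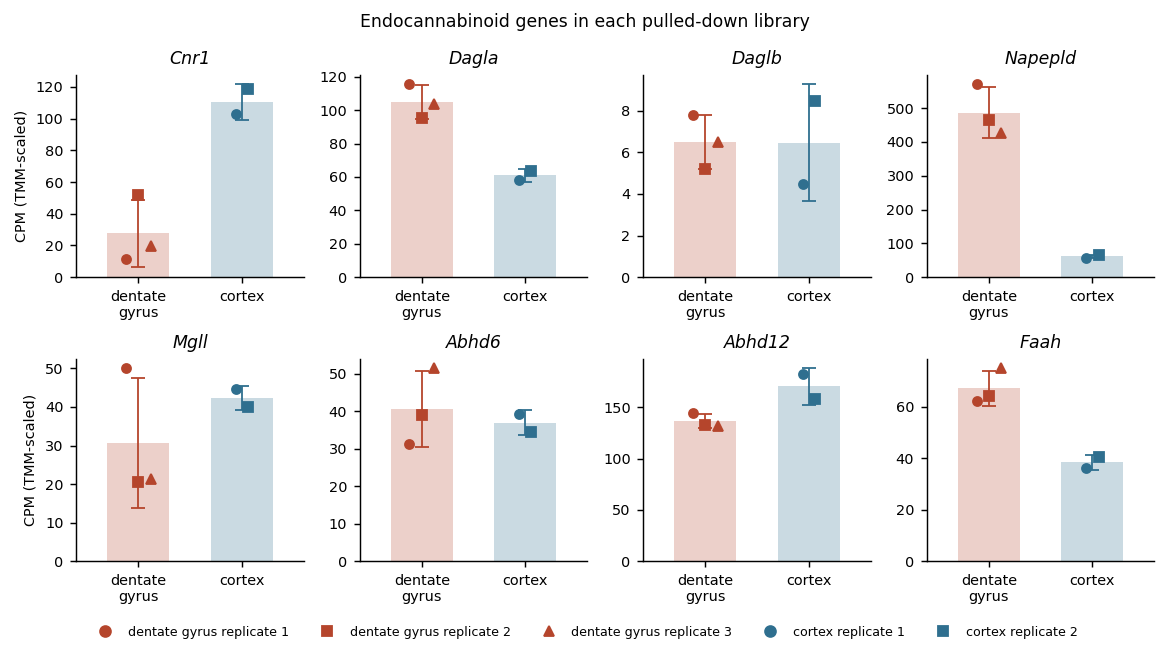
TMM-scaled CPM of each member in the 3 dentate gyrus and 2 cortex libraries; bars are means, error bars SD, and symbols single libraries. Napepld, Dagla and Faah lie higher in every dentate gyrus library, Cnr1 and Abhd12 lie lower in every one, and the tissues overlap for Daglb, Mgll and Abhd6.

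Cnr1 encodes CB1, the main cannabinoid receptor of neurons (chromosome 4, 33924593 to 33948831, plus strand). It had 11.5, 51.6 and 19.9 CPM in dentate gyrus replicates 1, 2 and 3, against 103 and 118 CPM in cortex replicates 1 and 2. The tissues did not overlap, but the dentate gyrus libraries spread widely and replicate 2 stood highest among them. The means were 27.6 ± 21.2 CPM in dentate gyrus (SD, n = 3) and 111 ± 11.2 CPM in cortex (SD, n = 2), a log2 fold change of -2.00 (SE 0.49, edgeR adjusted p 0.0165). Raw reads numbered 415 to 3599 per library, so counting error is small beside this spread. In bulk RNA of this kind, fewer cells of a type and less RNA per cell cannot be told apart. The log2 change was -2.84 without dentate gyrus replicate 2 (adjusted p 0.000151), and the adjusted p was 0.0501 by DESeq2, 0.0505 without cortex replicate 1 and 0.0706 without cortex replicate 2.

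Several neuron markers were lower with Cnr1 in dentate gyrus, and some of them, not all, also followed it among the dentate gyrus libraries. Fezf2, a transcription factor gene that specifies corticospinal neurons, had 1.82, 60.2 and 17.5 CPM in dentate gyrus replicates 1, 2 and 3, the same order as Cnr1, against 353 and 283 CPM in cortex. Over the 6 layer 5 markers, of which 5 were lower and 0 at 0 counts, the summed level was 80.2 to 239 CPM in dentate gyrus and 949 to 1025 CPM in cortex, with dentate gyrus replicate 2 highest of its tissue. Pou3f1 of that list ran the other way, with 5.77, 0.933 and 3.21 CPM in dentate gyrus, against 10.8 and 15.3 CPM in cortex, and was not called. The 8 mossy cell and CA pyramidal markers summed to 32.7, 89.7 and 45.1 CPM in dentate gyrus, against 146 and 135 CPM in cortex. Of them, 1 was higher, 2 were lower and Csf2rb2 was at 0 counts throughout. The list joins markers of both cell types, so its sum cannot be read as mossy cell RNA. Most of the dentate gyrus sum was Wfs1, at 24.6, 75.6 and 36.7 CPM. That gene had 65.8 and 75.2 CPM in cortex and was not called. Drd2 of the same list had 0.497, 1.73 and 1.41 CPM in dentate gyrus, against 4.19 and 16.8 CPM in cortex. Of 10 GABAergic interneuron markers, 1 (Gad1) was higher and 7 were lower, and none was at 0 counts in all libraries. Their sum was 257, 212 and 259 CPM in dentate gyrus replicates 1, 2 and 3, lowest in replicate 2, against 1092 and 1054 CPM in cortex. Gad1 had 71.6, 57.2 and 64.8 CPM in dentate gyrus, against 26.6 and 41.0 CPM in cortex. Most of the cortex sum was Sst, at 700 and 641 CPM. Of 6 markers chosen for cholecystokinin interneurons, 1 was higher and 2 were lower. The 6 summed to 351 to 422 CPM in dentate gyrus and 1063 to 1181 CPM in cortex. Most of the sum was Cck, a peptide gene that pyramidal neurons also express. Adarb2, the higher marker, had 48.5, 70.0 and 82.5 CPM in dentate gyrus replicates 1, 2 and 3, against 2.85 and 6.61 CPM in cortex. The part of these cells in the Cnr1 difference was not tested.

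The genes nearest to Cnr1 in pattern were Camk2d, Phactr2 and Rab3b. Likeness was the root mean square difference of log2 CPM, each gene centred on its mean, over the 5 libraries and among 3318 genes of similar level. The distances were 0.16, 0.21 and 0.31. Camk2d, the delta subunit gene of calcium/calmodulin-dependent kinase II, had 22.2, 88.0 and 29.6 CPM in dentate gyrus replicates 1, 2 and 3, against 198 and 185 CPM in cortex. Rab3b, a synaptic vesicle GTPase gene, had 9.27, 31.1 and 8.58 CPM in dentate gyrus, against 49.6 and 65.8 CPM in cortex. All 3 genes share with Cnr1 the highest dentate gyrus value in replicate 2, which their selection for likeness over these same 5 libraries favours.

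**Figure D2:**
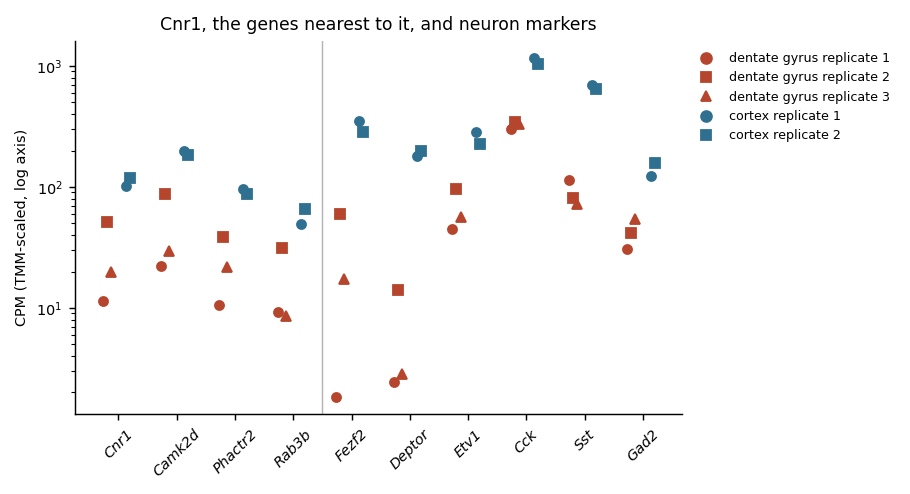
TMM-scaled CPM on a log axis of Cnr1, its nearest genes in pattern (left of the line) and neuron markers (right), with 1 symbol per library. Dentate gyrus replicate 2 is the highest of its tissue for Cnr1, Camk2d, Phactr2, Rab3b, Fezf2, Deptor, Etv1 and Cck, but not for Sst and Gad2. The nearest genes were picked for their likeness to Cnr1 over these same libraries. All dentate gyrus values drawn lie under the cortex values, whereas Gad1, not drawn, was higher in dentate gyrus.

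Dagla encodes the diacylglycerol lipase known as the main source of 2-AG at adult synapses (chromosome 19, 10245265 to 10304877, minus strand). It had 116, 95.2 and 104 CPM in dentate gyrus replicates 1, 2 and 3, against 58.3 and 63.7 CPM in cortex. Every dentate gyrus library exceeded both cortex libraries, with little spread inside either tissue. Its log2 fold change was 0.78 (SE 0.18, edgeR adjusted p 0.0135), a 1.72-fold difference. The adjusted p was 0.0905 without cortex replicate 1 and 0.0652 without cortex replicate 2, at log2 changes of 0.73 and 0.81.

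Daglb, the second diacylglycerol lipase gene, known for its part in 2-AG synthesis in microglia and macrophages, was the scarcest member. It had 7.78, 5.20 and 6.50 CPM in dentate gyrus, against 4.48 and 8.45 CPM in cortex, from 117 to 282 reads per library. The dentate gyrus values lie inside the span of the cortex pair. The log2 difference was 0.01 with an SE of 0.54 (edgeR adjusted p 0.993), so a change of the size seen in Dagla could not be told from 0 here. Its exons share 2309 bases with Rac1 on the opposite strand, a gene with 24831 to 71240 reads per library, and the strand setting of the counting is not given in the sources used here, so reads of the pair may be mixed or set aside.

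Napepld encodes NAPE-PLD, which releases anandamide and other N-acylethanolamines from membrane phospholipids (chromosome 5, 21662901 to 21701396, minus strand). It had 571, 464 and 426 CPM in dentate gyrus replicates 1, 2 and 3, against 57.5 and 65.3 CPM in cortex. The lowest dentate gyrus library lay far above the highest cortex library. The log2 fold change was 2.99 (SE 0.17, edgeR adjusted p 4.46e-06), a 7.94-fold difference, and the gene ranked 34 of 14136 by p-value. Among genes called higher in dentate gyrus, 199 of 1481 had a larger fitted change. The log2 change stayed between 2.84 and 3.06 when any 1 library was left out, with adjusted p-values of 4.35e-06 to 8.61e-05.

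Faah encodes the integral membrane hydrolase that ends anandamide signalling (chromosome 4, 115967145 to 116017926, minus strand). It had 62.3, 64.3 and 75.1 CPM in dentate gyrus, against 36.4 and 40.4 CPM in cortex. The tissues did not overlap, and the synthetic and the hydrolytic gene of this branch were thus both higher in dentate gyrus. The log2 fold change was 0.81 (SE 0.21, edgeR adjusted p 0.0235), a 1.75-fold difference. The adjusted p was 0.0798 without dentate gyrus replicate 3, 0.132 without cortex replicate 1 and 0.0939 without cortex replicate 2, with log2 changes of 0.71, 0.74 and 0.85.

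None of the 3 genes for 2-AG hydrolases passed the test. Mgll encodes monoacylglycerol lipase, the presynaptic enzyme known to carry most 2-AG hydrolysis in brain (chromosome 6, 88724412 to 88828360, plus strand). It had 50.1, 20.5 and 21.3 CPM in dentate gyrus replicates 1, 2 and 3, against 44.6 and 40.1 CPM in cortex. Dentate gyrus replicate 1 lay above both cortex libraries and the other dentate gyrus libraries below them. The log2 difference was -0.47 (SE 0.39, edgeR adjusted p 0.457), and without dentate gyrus replicate 1 it was -1.04 (SE 0.29, adjusted p 0.0315), so this library decides the call.

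Abhd6 encodes a membrane hydrolase known to limit 2-AG on the postsynaptic side (chromosome 14, 8002902 to 8056763, plus strand). It had 31.1, 39.0 and 51.4 CPM in dentate gyrus, against 39.3 and 34.5 CPM in cortex, and the tissues overlapped. Its log2 difference was 0.13 with an SE of 0.27 (edgeR adjusted p 0.789). Abhd12, a lipase gene better known for lysophosphatidylserine hydrolysis and abundant in microglia (chromosome 2, 150832493 to 150904741, minus strand), had 144, 133 and 132 CPM in dentate gyrus, against 183 and 158 CPM in cortex. The tissues did not overlap, yet the log2 difference of -0.32 (SE 0.15) did not pass the edgeR test (adjusted p 0.160).

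Glial RNA was read beside these hydrolases, since astrocytes express Mgll. Of 8 astrocyte markers 3 were called lower and 0 higher in dentate gyrus, where 10.8% and 10.5% of all tested genes were called in these directions. None of the 8 was at 0 counts in all libraries, and their median log2 fold change was -0.0061. The sum was 651 to 809 CPM in dentate gyrus and 1141 to 1144 CPM in cortex. Most of that sum was Slc1a2, a glutamate transporter gene. The 6 microglia markers summed to 1.10, 4.57 and 5.91 CPM in dentate gyrus, against 9.84 and 10.2 CPM in cortex, with C1qa at 0 counts in every library and none called by edgeR. The part of glial RNA in the Mgll and Abhd12 values was not tested.

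Levels of different genes were compared as CPM per kb of merged GENCODE M21 exons. In dentate gyrus Napepld stood first at 123 ± 19.0 CPM per kb and Abhd12 second at 48.3 ± 2.37 (SD, n = 3). Dagla at 18.3 ± 1.78 and Abhd6 at 17.1 ± 4.32 CPM per kb followed and overlapped each other. Faah at 8.58 ± 0.877, Mgll at 6.03 ± 3.32 and Cnr1 at 4.29 ± 3.29 CPM per kb came next, and their libraries overlapped one another. Daglb was last in both tissues.

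In cortex the order was another one. Abhd12 stood first at 60.4 ± 6.27 CPM per kb, and Cnr1 at 17.1 ± 1.74, Abhd6 at 15.6 ± 1.44 and Napepld at 15.5 ± 1.40 followed without separation between neighbours (SD, n = 2). Dagla had 10.6 ± 0.660, Mgll 8.34 ± 0.629, Faah 4.90 ± 0.357 and Daglb 0.676 ± 0.294 CPM per kb. Cnr1 was thus 7th of 8 members in dentate gyrus and 2nd in cortex, and Napepld 1st and 4th. Faah is the member whose place depends on its transcripts, because the exons of its basic GENCODE set span 3827 bases in place of 7834. Scaled to that set, it reached 17.6 CPM per kb in dentate gyrus and 10.03 CPM per kb in cortex.

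**Figure D3:**
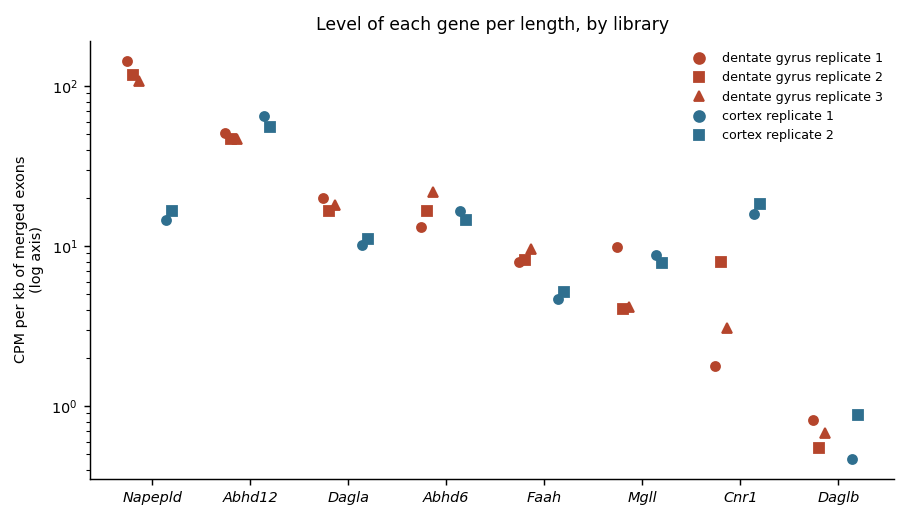
CPM per kb of merged exons on a log axis for the 8 members in each library, ordered by the mean in dentate gyrus. Napepld lies between 108 and 144 CPM per kb in dentate gyrus libraries and at 14.5 and 16.5 CPM per kb in cortex libraries, and Cnr1 lies between 1.78 and 8.01 CPM per kb in dentate gyrus libraries.

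Ratios of counts within a library do not depend on library scaling, and 6 pairs were compared. The anandamide pair shifted most: reads of Faah per read of Napepld were 0.109, 0.139 and 0.176 in dentate gyrus replicates 1, 2 and 3, against 0.634 and 0.618 in cortex. The log2 ratio was -2.85 ± 0.346 in dentate gyrus (SD, n = 3) and -0.676 ± 0.0255 in cortex (SD, n = 2). Dagla per Mgll, the main synthase over the main hydrolase of 2-AG, was 2.31, 4.65 and 4.89 in dentate gyrus, against 1.31 and 1.59 in cortex. Dagla per Daglb was 14.8 to 18.3 in dentate gyrus, against 7.53 and 13.0 in cortex. These 3 ratios did not overlap between tissues.

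The other ratios overlapped because of single dentate gyrus libraries. Mgll per Abhd6 was 1.61, 0.524 and 0.414 in dentate gyrus, against 1.13 and 1.16 in cortex, so that replicate 1 lay above the cortex pair. Cnr1 per Mgll ranged from 0.229 in dentate gyrus replicate 1 to 2.52 in replicate 2, against 2.30 and 2.95 in cortex. The two-sided exact permutation test used here doubles the smaller one-sided p. Over the 10 arrangements of the libraries, this doubled p cannot go below 0.2. The exact p was 0.2 for the 3 ratios without overlap and 0.4 to 0.6 for the others, with values of 0.4 and 0.6 after adjustment over the 6 pairs.

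**Figure D4:**
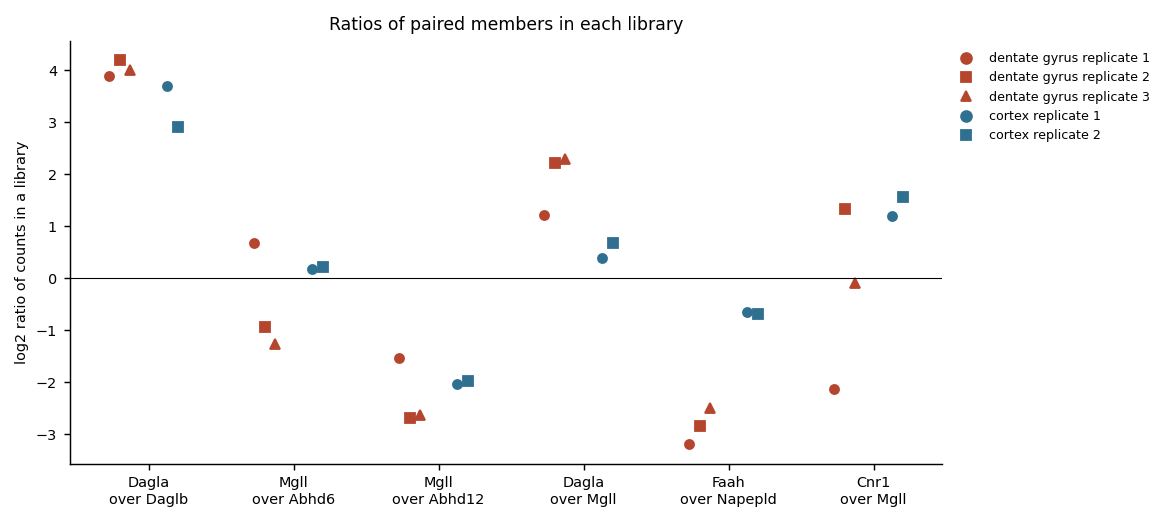
Log2 ratio of the counts of 2 members in the same library, with 1 symbol per library and 0 marking equal counts. Faah over Napepld lies at -3.20 to -2.51 in dentate gyrus and -0.694 to -0.658 in cortex, while Mgll and Cnr1 ratios spread among the dentate gyrus libraries.

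The wider pathway was read from lists of 43 further genes present in the files, of which 32 passed the filter on low counts. Of these, 6 were called higher and 8 lower in dentate gyrus by edgeR, where 10.5% and 10.8% of all tested genes were called in these directions, with a median log2 fold change of -0.35 over the 32. The calls numbered 9 without cortex replicate 1 and 8 without cortex replicate 2, in place of 14. The 5 other receptors for endocannabinoids or related lipids were too low to test: Cnr2, Gpr119 and Trpv1 had 0 counts in all libraries, and Gpr18 and Gpr55 summed to at most 0.456 CPM in a library. Of the 14 calls 7, among them those for Arrb1, Plcb4 and Hrasls, were also made in the same direction in each of the 15 alternatives run.

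Genes upstream of diacylglycerol, the substrate of Dagla, went in both directions, with 4 of 10 tested genes higher and 2 lower, where the shares over all tested genes were 10.5% and 10.8%. Grm5, a metabotropic glutamate receptor gene, had 253, 270 and 281 CPM in dentate gyrus replicates 1, 2 and 3, against 151 and 164 CPM in cortex. Chrm1, a muscarinic receptor gene, had 132, 121 and 129 CPM in dentate gyrus, against 78.4 and 83.6 CPM in cortex. Chrm3, another Gq-coupled muscarinic receptor gene, was lower, with 4.75, 6.88 and 1.92 CPM in dentate gyrus, against 32.2 and 34.2 CPM in cortex. Among phospholipase C beta genes, which make diacylglycerol, Plcb4 fell to 16.3, 20.7 and 22.6 CPM in dentate gyrus, against 193 and 198 CPM in cortex (log2 -3.30, SE 0.20, adjusted p 5.67e-06). Plcb1, the most abundant of them, had 652, 660 and 698 CPM in dentate gyrus, against 808 and 757 CPM in cortex, and was not called. Gnaq, the Gq alpha subunit gene, was higher (log2 0.47, SE 0.12, adjusted p 0.0175).

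Gnaq and Chrm1 passed the edgeR threshold narrowly. Gnaq had log2 changes of 0.40, 0.52 and 0.43 without cortex replicate 1, cortex replicate 2 or dentate gyrus replicate 3, with edgeR adjusted p-values of 0.122, 0.0533 and 0.0634. Chrm1, at 0.65 with all libraries, had 0.61, 0.67 and 0.63 without the same libraries, with adjusted p-values of 0.100, 0.0823 and 0.0547.

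Among 6 other tested genes for N-acylethanolamine synthesis, Hrasls, an N-acyltransferase gene, was lower and the others were not called. It had 5.71, 3.33 and 6.11 CPM in dentate gyrus, against 28.6 and 41.7 CPM in cortex (log2 -2.79, SE 0.39, edgeR adjusted p 0.000767). It thus moved opposite to Napepld. Abhd4, a lipase gene of an alternative route, had 3.89, 6.71 and 8.50 CPM in dentate gyrus, against 2.31 and 3.94 CPM in cortex, without a call. Ptgs2, the cyclooxygenase-2 gene whose enzyme can oxidise 2-AG and anandamide, was higher, with 30.2, 39.4 and 39.4 CPM in dentate gyrus replicates 1, 2 and 3, against 17.0 and 7.88 CPM in cortex (adjusted p 0.0158). That p was 0.106 without cortex replicate 2. Of the 3 fatty acid binding protein genes, which carry anandamide inside cells, none was called by edgeR in the main fit. All 3 were lower in dentate gyrus without overlap, as 50.1% of all tested genes did not overlap in either direction. Their median log2 fold change was -1.45. By DESeq2 the adjusted p was 0.0336 for Fabp3, 0.0120 for Fabp7 and 0.396 for Fabp5. Fabp7 had 0, 6 and 15 reads in dentate gyrus replicates 1, 2 and 3.

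Of 11 tested genes for CB1 partners and for the G proteins it uses, 5 were lower and 1 was higher, where 10.8% and 10.5% of all tested genes were called in these directions. The 5 lower genes became 3 (Arrb1, Gnai1 and Gnao1) without cortex replicate 1 or without cortex replicate 2, and none was then called higher. Of 5 genes for Gi/o alpha subunits, through which CB1 signals, 3 were lower and 0 higher. Gnao1 had 1390, 1499 and 1312 CPM in dentate gyrus, against 2507 and 2262 CPM in cortex (log2 -0.77, SE 0.09, edgeR adjusted p 0.000347). Gnai1 had 572, 964 and 638 CPM, against 1582 and 1366 CPM in cortex, again with dentate gyrus replicate 2 highest of its tissue. Of 6 genes for CB1-interacting proteins, Arrb1, the beta-arrestin 1 gene, had 141, 119 and 116 CPM in dentate gyrus, against 233 and 282 CPM in cortex (log2 -1.04, SE 0.16, adjusted p 0.00116), and Gprasp1, a receptor sorting gene, was also lower (log2 -0.57, adjusted p 0.0320). Sgip1, whose protein slows CB1 internalization, was higher by a log2 change of 0.38 (adjusted p 0.0485). The adjusted p of Gprasp1 was 0.0528 without dentate gyrus replicate 1, 0.0901 without cortex replicate 1 and 0.132 without cortex replicate 2, at log2 changes of -0.46, -0.61 and -0.55. Gnaz, a Gi/o alpha subunit gene, stood at a log2 change of -0.49 (adjusted p 0.0420); leaving out either cortex library gave -0.41 and -0.59 (adjusted p 0.219 and 0.0812), and leaving out dentate gyrus replicate 2 or 3 gave -0.46 and -0.51 (adjusted p 0.0922 and 0.0902). The Sgip1 call also depended on scaling and filter, with log2 changes of 0.34 to 0.37 and adjusted p-values of 0.0534 to 0.0671 under RLE or upper quartile scaling, the stricter filter or without Rn45s. Its adjusted p was 0.124 to 0.246, at log2 changes of 0.31 to 0.41, without dentate gyrus replicate 1 or 2 or either cortex replicate. Cnrip1, the CB1-interacting protein gene, had 95.9, 99.4 and 125 CPM in dentate gyrus, against 109 and 118 CPM in cortex, and was not called (adjusted p 0.799).

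**Figure D5:**
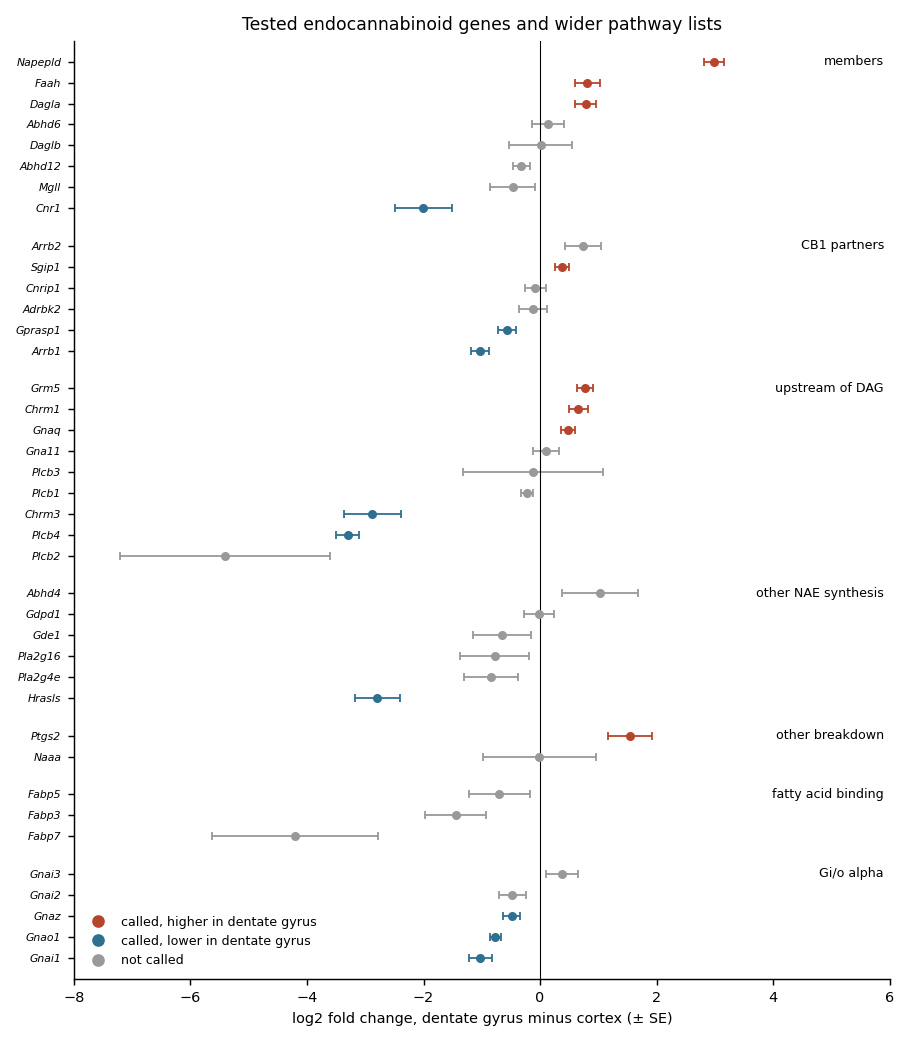
Log2 fold change, dentate gyrus minus cortex, with SE for the 8 members and the tested pathway genes except the one not reported here, grouped by role; colours give the edgeR call. Napepld has the largest rise of the genes drawn and Plcb4 the lowest called value.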

How the data were processed

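Per the submitters' processing notes, the deposited counts were made by the authors from reads handled with STAR 2.0.0e and HTSeq on mm10. For HTSeq, version, annotation, strand setting and overlap mode were not given in the sources used here. Each library has its own table of unnormalized counts by symbol. HTSeq's summary classes entered neither library sizes nor tests: reads without a feature were 10.6% to 14.8%, reads matching several places 25.0% to 31.8% and ambiguous reads 1.81% to 1.87% of counted reads. Libraries of 1 tissue differed beyond counting noise (chi-square per degree of freedom 40.7 to 56.5). The fit used edgeR 4.0.16 in R 4.3.3 with TMM scaling, filterByExpr and tissue as the single term, dentate gyrus minus cortex, with a threshold of 0.05 on the adjusted p. The SE of a log2 fold change is its size over the square root of F. DESeq2 1.42.0 and voom of limma 3.58.1 were alternatives. The fits were tested on simulated data.

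Members and lists were chosen with earlier results of these data known. Named genes were all members, the 12 pathway genes with the smallest adjusted p, the 3 genes nearest to Cnr1, Dagla and Mgll, the 3 most abundant genes of each marker list and Prox1, Fezf2 and Rbp4. Plcb1, Abhd4, Cnrip1, Sgip1, Rac1, Rn45s and genes named for lying at 0 counts were chosen after their values were seen. So were Gnaz, Pou3f1, Gad1, Mndal, Gpr18, Gpr55, Fabp3, Fabp5 and Fabp7. The result of a pathway gene that the rule names is not reported here, though it is in the counts. Some genes are listed under older symbols, such as Hrasls. Exon lengths and positions are from GENCODE M21 (GRCm38, the mm10 build), with exons of the basic set added as an alternative after the data were seen.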

Additional observations from a re-analysis of the deposited data

How the results depend on the processing

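Napepld was called in the same direction in each of its 15 alternatives. The count of genes called was 3009, and 1906 without cortex replicate 1, 1886 without cortex replicate 2 and 1578 with cortex replicate 1 and dentate gyrus replicate 2 both left out, fits with fewer samples. In that last fit 2 members (Napepld and Cnr1) and 8 pathway genes were called, and the log2 changes of Dagla and Faah, no longer called, were 0.79 and 0.77. Leaving out 1 library each gave 1886 to 2775 genes, 1 to 5 members and 8 to 13 pathway genes called. The log2 changes then ran from -2.84 to -1.65 for Cnr1, 0.69 to 0.83 for Dagla, -0.37 to 0.50 for Daglb, -1.04 to -0.26 for Mgll, 0.71 to 0.85 for Faah and -0.089 to 0.28 for Abhd6. By DESeq2 the log2 change of Cnr1 was -2.02 and just missed the threshold (adjusted p 0.0501); over all alternatives its adjusted p ran from 4.40e-15 to 0.0706, and the cause was not tested. Daglb, near 0, changed sign under RLE scaling (-0.0097), upper quartile scaling (-0.028), the stricter filter (-0.018), DESeq2 (-0.0087) and with both libraries left out (-0.24). No within-library ratio changed sign in its 7 alternatives. With a replicate block, Faah was at a log2 change of 0.72 (adjusted p 0.0950) and Abhd6 at -0.080. The block lost 3 of the 14 pathway calls and changed no other member's call. Same-numbered libraries did not deviate together by correlation (-0.0040 and -0.0163). Centred on their mean, the cortex libraries mirror each other, so these correlations are not independent and cannot exclude pairing. The numbers were taken to name libraries and not to pair them. These are the numbers of the sample titles; the deposited tables number all 5 libraries in 1 run with no number shared between tissues, so the block rests on the titles alone. Daglb, at 117 to 282 reads per library, is the member most limited by depth.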

Other observations

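The pattern of Mgll was that of dentate gyrus replicate 1 standing apart. Neighbours of Dagla and Mgll were picked for likeness over the same libraries, so their resemblance was selected. No background distance was taken, so how close they are cannot be judged. The genes nearest to Dagla, by the same measure as for Cnr1 and among 2652 genes of similar level, were Tmed7, Zfp62 and Pan3, at distances of 0.045, 0.057 and 0.058 on the log2 scale. Pan3, a gene of the poly(A)-shortening complex, had 177, 163 and 172 CPM in dentate gyrus replicates 1, 2 and 3, against 91.5 and 105 CPM in cortex. The genes nearest to Mgll among 3490 were Dctn3, Rpn2 and Smg5. Dctn3, a dynactin subunit gene, had 56.3, 24.3 and 26.7 CPM in dentate gyrus, against 47.4 and 39.1 CPM in cortex.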
